A study of Mus musculus with 15 samples.

Results

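Phase II conjugation enzymes attach a polar group to drugs, hormones, bilirubin and bile acids so that they can leave the body. The UDP-glucuronosyltransferases (Ugt) transfer glucuronic acid, the cytosolic sulfotransferases (Sult) transfer sulfate, and the glutathione S-transferases (Gst) transfer glutathione. In rodent liver much of this capacity is known to be put in place around and after birth, when the newborn no longer relies on the placenta and the mother. The genes described here are those whose array name begins with Ugt or Sult and a number, or with Gst and a lower-case letter. That rule found 53 genes with 80 probes among the non-control probes: 15 Ugt, 17 Sult and 21 Gst genes. A gene was kept if, in some group, 3 or more arrays had a probe of it well above background. This left 49 genes of 22638 tested in all: all 15 Ugt genes, 14 Sult genes and 20 Gst genes. Gstt4, Sult1c1, Sult2a7 and Sult6b1 were not kept. All 53 names are current RefSeq symbols (GRCm38.p6). The name pattern also takes in Gstcd, a protein with a glutathione S-transferase-like domain, and Ugt8a, the galactosyltransferase that makes galactosylceramide, which are not known as drug-conjugating enzymes.

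Liver RNA was measured on Agilent 1-colour arrays, 1 array per animal, in C57BL/6J mice that lack the miR-379/miR-410 microRNA cluster through a deletion passed on by the mother (KO) and in their wild-type littermates (WT). Fetuses delivered by caesarean at E19.5 formed WT_E19 (n = 3) and KO_E19 (n = 3). The other 2 groups were WT_P0 (n = 4) and KO_P0 (n = 5), born naturally and taken on postnatal day 0. Age and mode of delivery therefore cannot be told apart, and the deletion was carried by the whole animal, not only by the liver. Levels are log2 processed signal minus the 75th percentile of the array, so a level of 0 stands for that percentile, and levels of different genes are not compared. Differences come from 1 limma model over all 15 arrays. A gene passed at an adjusted p (Benjamini-Hochberg over the 22638 genes) under 0.05, and the p-values measure the spread between these animals.

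The genotype labels were checked with Mirg, the host transcript of the cluster. It lay between 1.15 and 2.34 on the WT arrays and between -1.57 and -0.41 on the KO arrays. The summed hepatocyte marker level (12 of 12 markers measured) was between 12.31 and 13.09 on every array. By group it was 13.00 to 13.09 in WT_E19, 12.67 to 12.86 in KO_E19, 12.31 to 12.38 in WT_P0 and 12.48 to 12.68 in KO_P0. The sum, carried by its brightest markers, was lower at P0 in WT and higher in KO_P0 than in WT_P0. Tat went the other way over birth, with 1.83 to 2.30 in WT_E19 and 3.52 to 4.61 in WT_P0. So did Cps1, with 4.34 to 4.51 and 5.22 to 6.31. Apoa1 overlapped between these 2 groups, and the other markers were lower in WT_P0. Several markers, Apoa1 and Cps1 among them, overlapped between WT_P0 and KO_P0. The summed erythroid level (11 of 12 markers measured) was 11.70 to 11.90, 11.41 to 11.53, 10.76 to 11.09 and 11.08 to 11.36 in the same order of groups. It is mainly that of the globins Hba-a1 and Hbb-b1. The median level of the erythroid markers was 3.02 to 3.10, 2.92 to 3.31, 2.01 to 3.15 and 2.87 to 3.28, overlapping between the groups. The summed level of intestine and stomach markers (5 of 12 measured) was 3.01 to 3.49, 2.38 to 2.61, 2.82 to 3.66 and 1.49 to 1.97, lower in KO than in WT at both ages. This sum is mainly that of Fabp2, at 2.88 to 3.37, 2.23 to 2.47, 2.72 to 3.60 and 1.38 to 1.85. Vil1 was lower in KO_E19 and overlapped at P0, and Lct, Atp4a and Tff2 overlapped between the genotypes at both ages. Transcripts of exocrine pancreas (14 of 15 markers measured) stood out on WT_P0 3 and WT_P0 4, with summed log2 levels of 6.31 and 7.70, against 4.07 and 4.63 on the other WT_P0 arrays. They reached 3.52 to 4.87 in KO_P0, 2.95 to 3.41 in WT_E19 and 3.05 to 3.16 in KO_E19. Array brightness, the 75th percentile of log2 signal, also moved with the groups: 8.44 to 8.57 in WT_E19, 8.81 to 9.05 in KO_E19, 9.23 to 9.61 in WT_P0 and 9.08 to 9.33 in KO_P0. The arrays lay on 3 slides, and WT_P0 3 and 4 shared slide 3 with KO_P0 3, 4 and 5. Median levels of 11 skeletal muscle markers were 0.27 on WT_E19 1, 0.06, 0.76 and 1.72 on WT_P0 1, 2 and 4, 1.35 on KO_P0 5 and at most -1.43 on the other arrays. The median of 9 adrenal cortex markers was 3.39 on WT_P0 2. On the same array the summed level of kidney markers (5 of 8 measured) was 2.19, against -0.56 to 0.60 on the other arrays. The part of each of these in the results below was not tested beyond the values given beside them. In bulk liver, fewer cells of a type and less RNA per cell cannot be told apart.

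The probes decide which enzyme a value stands for, because the 3 families hold close paralogs. For 39 of the 49 genes the array's own annotation of the probe lists transcripts of 1 gene only, and for 10 it lists several. Among the latter are Sult2a1, Sult2a2 and Sult2a4, hydroxysteroid sulfotransferases that lie together on chromosome 7. Over the bases that could be aligned without gaps, the Sult2a1 and Sult2a4 probes differed at 3 of 54 bases, Sult2a1 and Sult2a2 at 5 of 59, and Sult2a2 and Sult2a4 at 6 of 53. A matching stretch of 30 bases from each 60-base probe is shown 5′ to 3′, as on the array, with capitals at the bases that the 3 probes do not share.
Sult2a1: tGtGtatcttgaatacctAGatGtggtcat
Sult2a2: tCtAtatcttgaatacctGAatAtggtcat
Sult2a4: tCtGtatcttgaatacctAGatGtggtcat
These 3 genes, and Sult2a6, whose probe also lists Sult2a1 and Sult2a5, are therefore reported as a set whose members may share signal. The annotation of the Sult2a3 probe also lists Sult2a4. The annotation of the Ugt1a6a probe and that of the Ugt1a6b probe each list 4 genes of the Ugt1 locus, so their values may stand for several enzymes of it.

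The 7 members shown next, among those that differed most between the genotypes at P0, have probes whose annotation lists 1 gene. The first 30 bases of these probes are given to identify what was measured. Positions are on mm9.
Sult1c2: cctgaaagcaaactgtaaaggccaaagatt
Gsta2: gccacagatactggcctctaattgtttgca
Ugt2b35: ctttatgttttctttttgatcacacataca
Ugt2b1: actatacccaacaacaatcactgaggttac
Gstt3: gttgcttggtatgtcctgactttccaaatt
Gstk1: acaagtgccttttgaaaagccttaaattct
Ugt3a1: ggcctgggcagcaatcattctatattatac
The probe of Sult1c2 lay at chr17:53969205-53969264 and that of Gsta2 at chr9:78178856-78178915, both on the minus strand. Ugt2b35 was read at chr5:87441721-87441780 on the plus strand and Ugt2b1 at chr5:87346310-87346369 on the minus strand. The other 3 lay at chr10:75236966-75237025 on the minus strand (Gstt3), chr6:42200381-42200440 on the plus strand (Gstk1) and chr15:9244664-9244723 on the plus strand (Ugt3a1). An annotation of exons on mm9 was not used here.

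The P0 contrast of the genotypes asks what loss of the cluster does to these enzymes in the newborn liver. Of the 49 genes, 14 fell and 1 rose in KO_P0. Those that fell were 8 of 20 Gst genes, 4 of 15 Ugt genes and 2 of 14 Sult genes. The 2 Sult genes, Sult1c2 and Sult2a3, were kept through WT_P0 alone, the group in which they were higher, so their count is a description. Among genes with a probe above background on all 15 arrays, 8 of 19 Gst, 5 of 13 Ugt and 0 of 11 Sult genes fell. Of the 15 main calls, 12 were called there too, so the sets are not the same. The share of all genes under this stricter filter is not given, and the percentages below are for the main filter. The median difference over the 49 genes was -0.43 on the log2 scale, against 0.02 over all genes tested. Over all 22638 genes, 4.73% were lower and 2.3% were higher by the same rule. In 14 members every KO_P0 array was below every WT_P0 array, a pattern found in 5.42% of all genes. In 1 member every KO_P0 array was above, as in 833 of all 22638 genes.

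**Figure D1:**
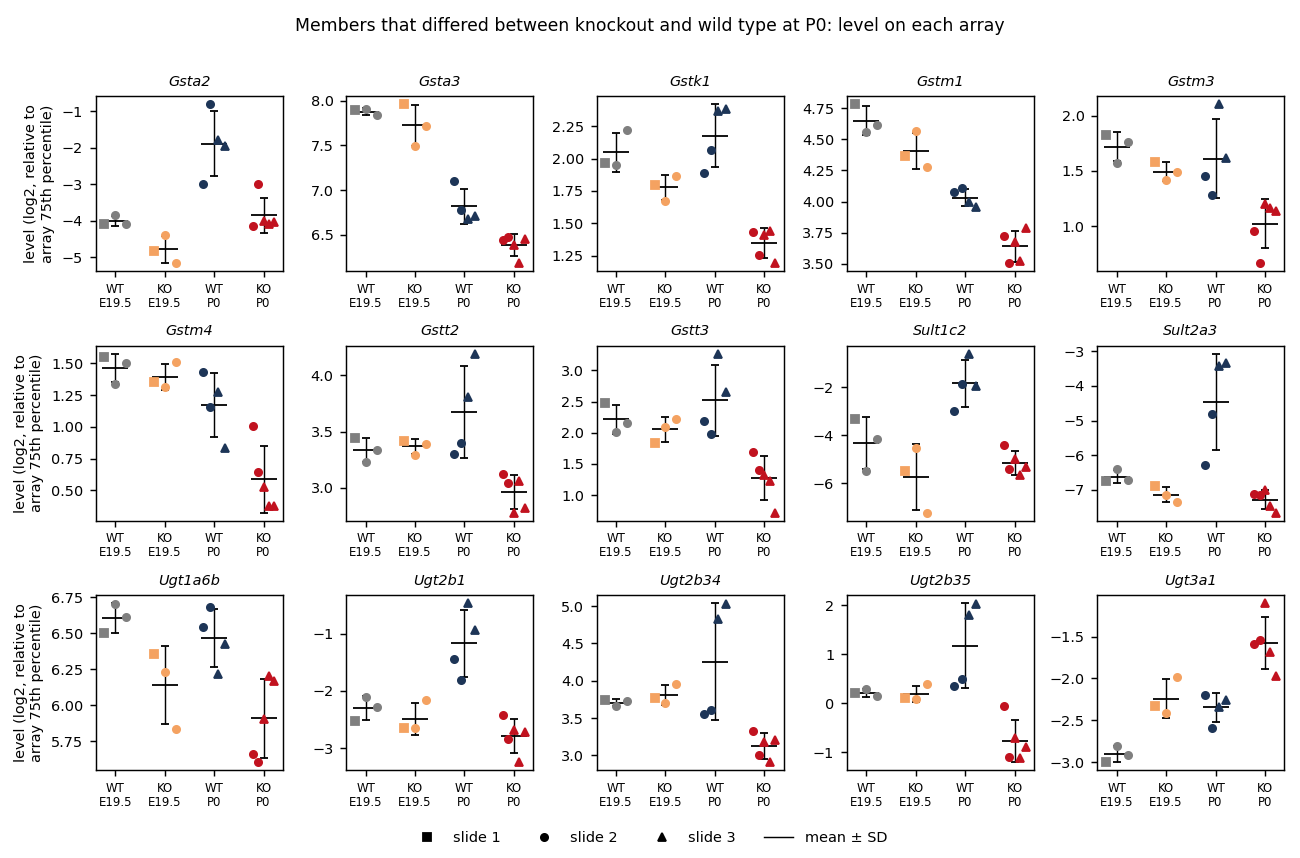
Level of the 15 members that differed between KO and WT at P0, on each array (log2, relative to the array's 75th percentile, a separate axis per gene). Points are arrays, shaped by slide, and bars give the mean ± SD of each group (n = 3, 3, 4 and 5). The KO_P0 arrays lie below the WT_P0 arrays in each panel but Ugt3a1, where they lie above, and Gstm4, where 1 array of each group overlaps.

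Among the glucuronosyltransferases, the Ugt2b enzymes, which conjugate steroids, bile acids and drugs, gave 3 of the 4 falls. Ugt2b35 had levels of 0.36, 0.50, 1.80 and 2.03 in WT_P0 and of -0.06, -1.08, -0.70, -1.12 and -0.88 in KO_P0. It fell by 1.94 (SE 0.32, 3.85-fold, adjusted p = 0.0054), and no KO_P0 array reached a WT_P0 array. Ugt2b1 had -1.44, -1.82, -0.47 and -0.94 in WT_P0 and -2.43, -2.84, -2.69, -3.24 and -2.71 in KO_P0. This was a fall by 1.61 (SE 0.24, 3.06-fold, adjusted p = 0.0030), again with no overlap. Ugt2b34 had 3.55, 3.60, 4.83 and 5.02 in WT_P0 and 3.33, 3.00, 3.18, 2.91 and 3.20 in KO_P0. It fell by 1.13 (SE 0.26, adjusted p = 0.025). In all 3 genes WT_P0 3 and 4 were the highest arrays, and WT_P0 1 and 2 were still above every KO_P0 array. The Ugt1a6b probe, annotated to 4 genes of the Ugt1 locus, which also codes for the bilirubin enzyme Ugt1a1, was at 6.47 ± 0.20 in WT_P0 (n = 4) and 5.91 ± 0.28 in KO_P0 (n = 5). It fell by 0.56 (SE 0.15, adjusted p = 0.044). The other Ugt2b genes had negative differences that did not pass: -0.68 for Ugt2b36 (adjusted p = 0.081), -0.60 for Ugt2b38 (0.052), -0.34 for Ugt2b37 (0.38) and -0.37 for Ugt2b5 (0.16).

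Ugt3a1, which transfers N-acetylglucosamine in place of glucuronic acid, was the 1 member that rose. Its levels were -2.20, -2.58, -2.34 and -2.25 in WT_P0 and -1.59, -1.54, -1.10, -1.69 and -1.97 in KO_P0. The rise was 0.76 (SE 0.15, 1.70-fold, adjusted p = 0.012), with every KO_P0 array above every WT_P0 array. On both slides that held P0 arrays the difference was close to this, 0.82 on slide 2 and 0.71 on slide 3. Its neighbour in the family, Ugt3a2, differed by 0.34 and did not pass, with WT_P0 1 at 1.28 and the other WT_P0 arrays between -0.26 and -0.15.

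Both sulfotransferases that fell were low-signal genes that only WT_P0 kept in the test. Sult1c2, of a class that sulfates phenols and hydroxyarylamines, had levels of -2.97, -1.84, -0.60 and -1.92 in WT_P0 and of -4.38, -5.40, -4.98, -5.66 and -5.33 in KO_P0. It fell by 3.32 (SE 0.58, adjusted p = 0.0064), and only 1 of the 5 KO_P0 arrays was well above background. Sult2a3, a hydroxysteroid sulfotransferase, had -6.28, -4.81, -3.42 and -3.33 in WT_P0 and lay between -7.66 and -7.00 in KO_P0. No KO_P0 array was well above background for Sult2a3, against 3 of 4 WT_P0 arrays, so it was at least 7.01-fold lower (adjusted p = 0.0048). With normexp background correction and the 75th percentile the Sult2a3 difference was -0.44 and did not pass (adjusted p = 0.055). The 7.01-fold bound sets each KO_P0 array at its own value or at the dimmest signal well above background on that array, whichever was higher. Like the other bounds below, it holds for the main processing only.

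Sult2a1, Sult2a2, Sult2a4 and Sult2a6, which may share signal, did not pass at P0. Sult2a1 had 1.38, 2.88, 4.80 and 4.87 in WT_P0 and 2.08, 2.54, 1.36, 2.86 and 0.89 in KO_P0. WT_P0 3 and 4 stood above every other array, while WT_P0 1 lay within the KO_P0 range and WT_P0 2 just above its highest array. The difference was -1.53 over all arrays (SE 0.68, adjusted p = 0.19), 0.18 on slide 2 (adjusted p = 0.92) and -3.13 on slide 3 (adjusted p = 0.046). Sult2a2, Sult2a4 and Sult2a6 had the same order of WT_P0 arrays, with differences of 0.03, 0.15 and 0.24 on slide 2 and of -2.09, -3.33 and -3.35 on slide 3. Without WT_P0 3 and 4 the Sult2a1 difference was -0.18 (adjusted p = 0.91). WT_P0 3 and 4 are the arrays with the highest pancreas marker level, whose part in these values was not tested. Sult1a1, the main phenol sulfotransferase of liver, differed by -0.19 and did not pass, with levels between 6.08 and 6.55 on all 9 P0 arrays. Sult1d1 differed by 0.08 and Sult1e1, the estrogen sulfotransferase, by 1.05, and neither passed.

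**Figure D2:**
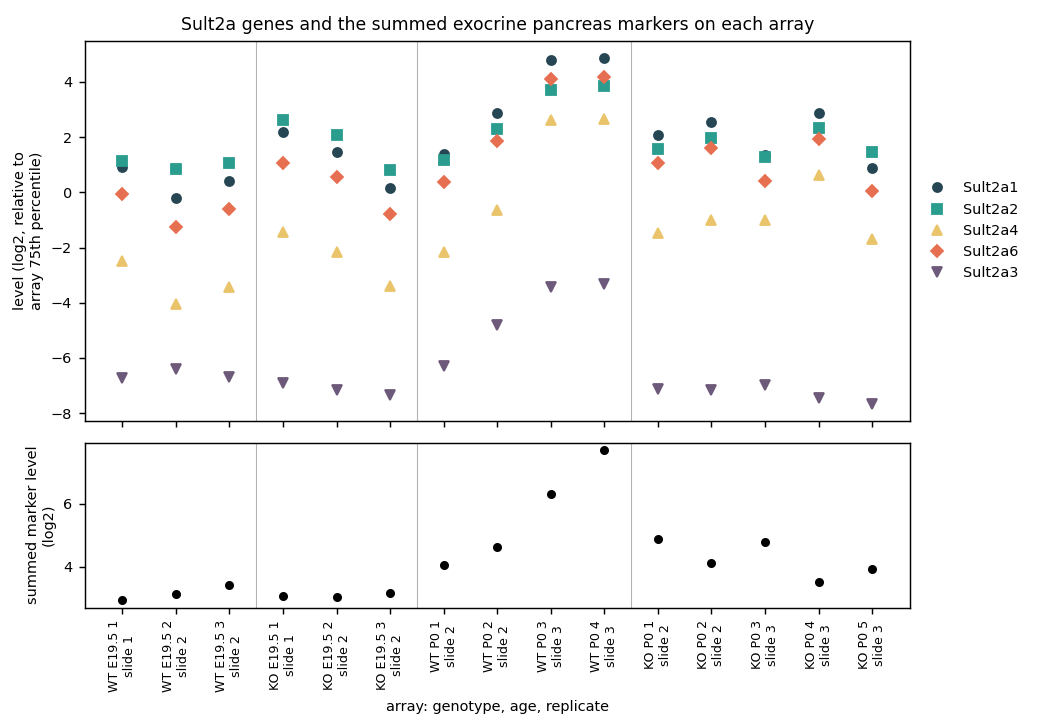
Levels of 5 Sult2a genes on each array (upper panel, log2, relative to the array's 75th percentile) and the summed level of 14 exocrine pancreas markers (lower panel, log2). Each point is 1 array, vertical lines part the 4 groups, and heights are not compared between genes. WT_P0 3 and WT_P0 4 are highest for each of the 5 genes, and their summed marker levels are 6.31 and 7.70.

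The glutathione S-transferases gave the most falls. In the alpha class, which detoxifies products of lipid peroxidation, Gsta2 had levels of -3.00, -0.81, -1.79 and -1.95 in WT_P0 and of -4.14, -3.01, -4.00, -4.09 and -4.03 in KO_P0. It fell by 1.97 (SE 0.35, 3.91-fold, adjusted p = 0.0073), with the highest KO_P0 array just below the lowest WT_P0 array. Gsta3 fell by 0.43 (SE 0.11, adjusted p = 0.039), and Gsta4, the 4-hydroxynonenal enzyme, differed by -0.46 and did not pass (adjusted p = 0.068). In the theta class, Gstt3 had 2.18, 1.99, 3.26 and 2.65 in WT_P0 and 1.69, 1.41, 1.32, 1.23 and 0.72 in KO_P0. It fell by 1.25 (SE 0.24, 2.37-fold, adjusted p = 0.011). Gstt2 fell by 0.71 (SE 0.16, adjusted p = 0.019), with WT_P0 3 and 4 at 3.81 and 4.19, WT_P0 1 and 2 at 3.30 and 3.40, and KO_P0 between 2.78 and 3.12. Gstt1 differed by 0.18 and did not pass, so the 3 measured theta genes did not give the same call.

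Gstk1, the mitochondrial and peroxisomal kappa enzyme, had the smallest unadjusted p of the 49 genes. Its levels were 1.89, 2.07, 2.37 and 2.38 in WT_P0 and 1.43, 1.26, 1.41, 1.44 and 1.19 in KO_P0, with no overlap. It fell by 0.83 (SE 0.12, 1.78-fold, adjusted p = 0.0023). In the mu class 3 of 7 genes fell: Gstm1 by 0.39 (SE 0.09, adjusted p = 0.025), Gstm3 by 0.59 (SE 0.16, adjusted p = 0.039) and Gstm4 by 0.59 (SE 0.14, adjusted p = 0.030). Gstm4 was the 1 member that passed although its groups overlapped, with WT_P0 4 at 0.83 and KO_P0 1 at 1.01. The brightest Gstm1 probe was placed on chromosome 5 by the array design, while the other Gstm genes were placed on chromosome 3. Its second probe gave -0.57. Gstm5, a member of the same class, differed by 0.28 and did not pass. Neither did the pi genes Gstp1 (-0.24) and Gstp2 (0.01), the omega genes Gsto1 (-0.19) and Gsto2 (0.01) or the zeta gene Gstz1 (-0.52, adjusted p = 0.067). Where a called gene had another kept probe, 6 of 6 such probes had the same sign.

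All 15 calls at P0 kept their direction on slide 2, on slide 3 and without WT_P0 3 and 4. For all but Gstm4 the 2 groups do not overlap, so any subset of the arrays must give the same direction. The agreement is therefore a description. The size often differed between the slides. Ugt2b34 differed by -0.41 on slide 2 and by -1.83 on slide 3, and Gstt3 by -0.53 and -1.87, whereas Gstm3 (-0.56 and -0.69) and Gsta2 (-1.67 and -2.17) were closer. On slide 2 alone (2 arrays per genotype) 0 of the 15 passed, with adjusted p from 0.25 to 0.46, and on slide 3 alone 9 passed. Without WT_P0 3 and 4, the calls of Gstk1 (adjusted p = 0.037), Sult2a3 (0.037), Ugt2b1 (0.042) and Ugt2b35 (0.046) remained. In each of the 14 genes that fell, WT_P0 1 and 2 were above every KO_P0 array, which for all but Gstm4 follows from the lack of overlap. It also held for 9 of the 34 members that did not pass. The share of all genes with these orders of arrays is not given. In 8 of the 14, WT_P0 3 and 4 were both above WT_P0 1 and 2, as they were in 13 of the 34.

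Leaving out 1 array at a time, 8 of the 15 calls remained in every omission: Gsta2, Gstk1, Gstt3, Sult1c2, Sult2a3, Ugt2b1, Ugt2b35 and Ugt3a1. Without WT_P0 3 these 8 were the calls that remained. The calls of Gsta3, Gstm3 and Ugt1a6b were each lost in 12 of the 15 omissions (adjusted p up to 0.080, 0.11 and 0.093). Those of Gstm1, Gstm4, Gstt2 and Ugt2b34 were lost without WT_P0 3 (adjusted p = 0.061, 0.088, 0.064 and 0.083). Gstm1 was also lost without KO_P0 2 or 4, Gstm4 without WT_P0 1 or KO_P0 3, 4 or 5, and Ugt2b34 without WT_P0 4 or KO_P0 2 or 4. With array brightness as a covariate the 15 differences kept their direction and 0 passed (adjusted p from 0.091 to 0.49). The labels state no pairing of animals, though P0 arrays with the same replicate number deviated together and shared a slide. With that number as a block 12 of the 15 passed. Gsta3 (adjusted p = 0.052), Ugt1a6b (0.067) and Ugt2b34 (0.058) did not.

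**Figure D3:**
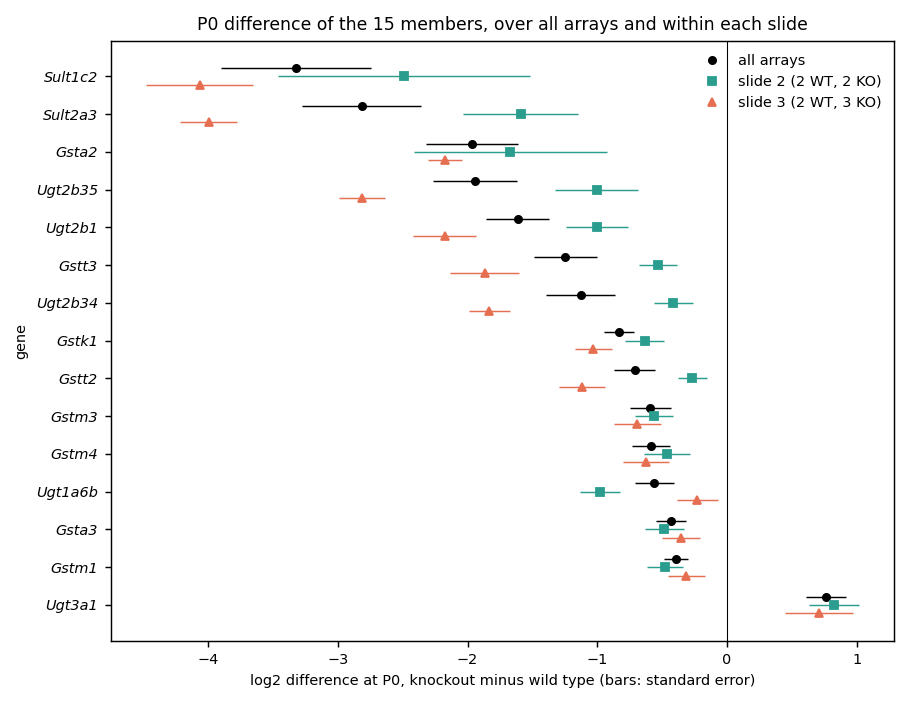
Log2 difference at P0, KO minus WT, of the 15 members over all arrays (circles) and within slide 2 (squares, 2 WT and 2 KO arrays) and slide 3 (triangles, 2 WT and 3 KO arrays). Bars are standard errors. Each gene lies on the same side of 0 in the 3 estimates, which the lack of overlap between the groups fixes for all but Gstm4. Ugt2b34 moves from -0.41 on slide 2 to -1.83 on slide 3.

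At E19.5, 0 of the 49 genes passed, and 4 had an unadjusted p under 0.05 by limma (628 of all 22638 genes). Over all genes 0.0133% were higher and 0.0221% were lower in KO_E19. No alternative tried gave a different count for the members. The median difference was -0.02. Ugt3a1 had the smallest p, with -2.99, -2.80 and -2.91 in WT_E19 and -2.33, -2.41 and -1.98 in KO_E19, a difference of 0.66 (SE 0.19, adjusted p = 0.94). The other 3 were Gstcd (0.49), Ugt1a6b (-0.47) and Gstm1 (-0.25), each with an adjusted p of 0.9999. Sult1c2 differed by -1.42 but was well above background on 2 of 3 WT_E19 and 1 of 3 KO_E19 arrays.

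Whether the KO effect differed between the ages was tested as an interaction. None of the 49 genes passed by limma (0% of all genes), while 16 members and 2124 of all genes had an unadjusted p under 0.05. The smallest p were those of Ugt2b35 (-1.92, SE 0.51, adjusted p = 0.28) and Ugt2b1 (-1.43, SE 0.38, adjusted p = 0.28). A KO effect at P0 that differs from that at E19.5 was therefore not shown for any of these genes. Leaving out the 5 arrays with raised muscle or adrenal transcripts keeps only WT_P0 3 in its group, an array with raised pancreas transcripts. The Ugt2b34 difference was then -1.84, and no call is read from a group without a spread of its own. Sult2a3 was not well above background on any array of the 3 groups other than WT_P0, so no size is given for it.

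The comparison of P0 with E19.5 in WT asks how the enzymes change over birth. Here the families went different ways. Of 14 Sult genes 9 rose and 1 fell, of 20 Gst genes 1 rose and 6 fell, and of 15 Ugt genes 3 rose and 0 fell. Of the 9 Sult genes, Sult1c2, Sult1e1 and Sult2a3 were kept only through P0 groups. Among genes above background on all 15 arrays 6 of 11 Sult genes rose, and the share of all genes under that filter is not given. Sult2a genes, whose probes may share signal, made up 5 of the 9. The counts and the Sult median take them as separate genes, so the 9 need not be separate changes. Over all genes 8.35% rose and 10.7% fell. The family medians were 1.49 for Sult, -0.20 for Gst and 0.43 for Ugt, against -0.02 over all genes. Without WT_P0 3 and 4, 2 Sult genes rose and 0 fell, 1 Ugt gene rose, 1 Gst gene rose and 6 fell, and the Sult median was 0.70. The share of all genes called without these arrays is not given.

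**Figure D4:**
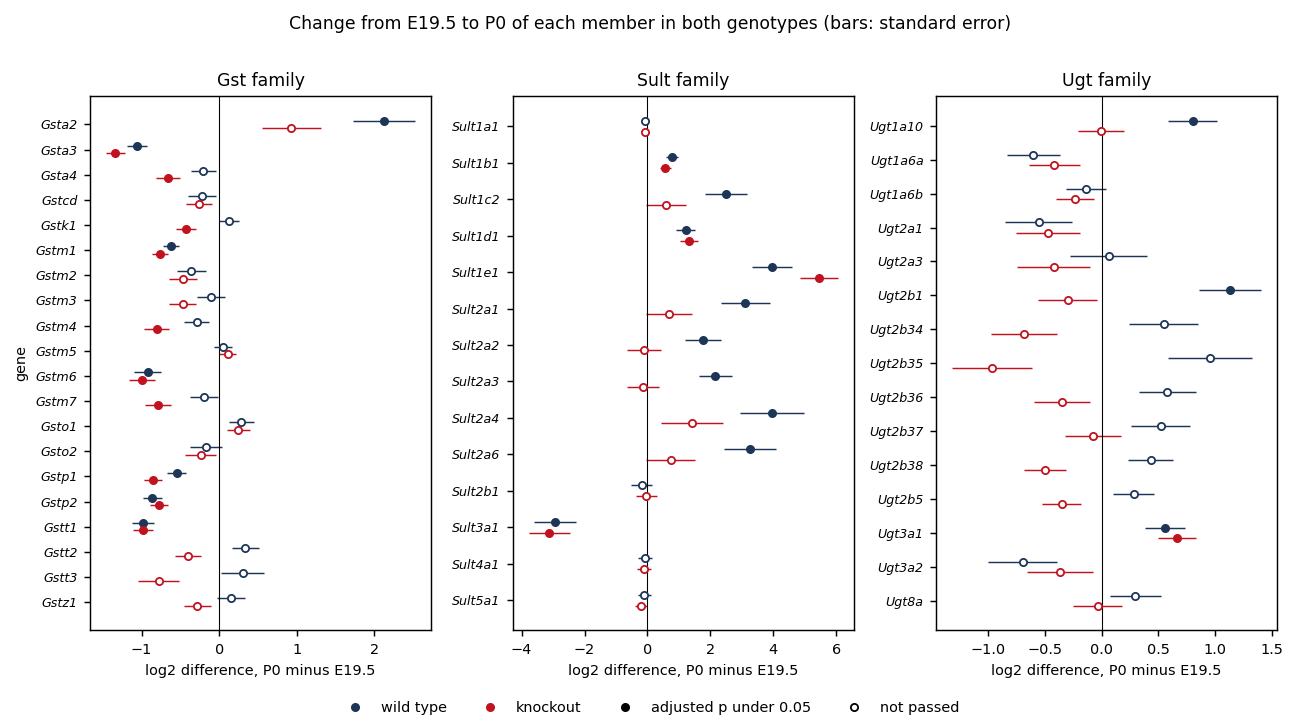
Log2 difference between P0 and E19.5 of each of the 49 members, in WT and in KO, by family, with standard errors. Filled points passed at an adjusted p under 0.05, and the horizontal scales differ between panels. Gst genes lie mostly left of 0 in both genotypes, while the Sult2a and Ugt2b genes lie right of 0 in WT and nearer to or left of 0 in KO.

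Sult1e1, which inactivates estrogens, went from no WT_E19 array above background (-7.18, -6.56 and -6.89) to -3.66, -3.58, -3.10 and -1.33 in WT_P0, all 4 above background. It was at least 14.1-fold higher (adjusted p = 0.0012). With normexp background correction the Sult1e1 difference was 0.65 with the 75th percentile (adjusted p = 0.23) and 1.21 with quantile normalization (adjusted p = 0.060), and it did not pass. Sult1d1, which sulfates catecholamines, was at 1.48 ± 0.15 in WT_E19 (n = 3) and 2.70 ± 0.78 in WT_P0 (n = 4), a rise by 1.22 (SE 0.31, adjusted p = 0.014). Sult1b1, which sulfates thyroid hormone and phenols, rose by 0.78 (SE 0.18, adjusted p = 0.010), and Sult1c2 by 2.49 (SE 0.66, adjusted p = 0.019). The 5 Sult2a genes rose: Sult2a4 by 3.95 (SE 1.02, adjusted p = 0.017), Sult2a6 by 3.27 (SE 0.82, adjusted p = 0.014), Sult2a1 by 3.11 (SE 0.78, adjusted p = 0.014) and Sult2a2 by 1.76 (SE 0.57, adjusted p = 0.046). Sult2a3 was at least 4.44-fold higher (adjusted p = 0.012), with no WT_E19 array above background, and its difference was -0.16 with normexp and the 75th percentile. Within WT_P0 these 5 genes spread widely. Without WT_P0 3 and 4 none of the 5 passed, and the differences were 1.93 for Sult2a4, 1.74 for Sult2a6, 1.75 for Sult2a1, 0.73 for Sult2a2 and 1.07 for Sult2a3 (adjusted p from 0.074 to 0.38). Neither did Sult1b1 (0.59, adjusted p = 0.078) or Sult1c2 (1.92, adjusted p = 0.13). Without WT_P0 3 alone the Sult2a2 difference was 1.44 and did not pass (adjusted p = 0.12). It was lost in 11 of the 15 omissions. Without WT_E19 2, Sult2a1 (adjusted p = 0.059), Sult2a4 (0.066) and Sult2a6 (0.060) did not pass, nor did Sult1c2 (0.092), which was also lost without WT_P0 3 (0.053). Sult2a4 was also lost without WT_E19 3 (0.052), and Sult1b1 (0.052) and Sult1d1 (0.055) without WT_E19 1.

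Sult3a1, which conjugates amines, was the 1 sulfotransferase that fell. It had -1.11, -0.0033 and -2.14 in WT_E19 and -2.85, -2.83, -5.24 and -5.16 in WT_P0, a fall by 2.94 (SE 0.68, adjusted p = 0.0097). In KO it had -0.95, -1.44 and -0.12 at E19.5 and lay between -4.99 and -3.15 at P0, a fall by 3.13 (SE 0.65, adjusted p = 0.0052). No P0 array of either genotype reached an E19.5 array of the same genotype. The WT difference of Sult3a1 was -2.40 without WT_E19 2 (adjusted p = 0.051), -1.76 without WT_P0 3 and 4 (0.093) and -2.41 with slide as a block (0.054), and did not pass in these. With slide as a block the KO difference was -2.48 and did not pass either (0.056).

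Among the Gst genes, Gsta2 rose by 2.13 in WT (SE 0.40, adjusted p = 0.0033), from -4.10, -3.85 and -4.09 in WT_E19. Gsta3 fell by 1.06 (SE 0.13, adjusted p = 0.00021), Gstt1 by 0.98 (SE 0.14, adjusted p = 0.00052) and Gstm6 by 0.92 (SE 0.17, adjusted p = 0.0030). Gstp2 fell by 0.86 (SE 0.12, adjusted p = 0.00051), Gstm1 by 0.62 (SE 0.10, adjusted p = 0.0016) and Gstp1 by 0.55 (SE 0.12, adjusted p = 0.0081). The pi enzymes are known as abundant transferases of adult male mouse liver. For each of the 6, every WT_P0 array was below every WT_E19 array, a pattern found in 3772 of all 22638 genes. The 6 were picked as calls, so this is a description. Each of these 6 calls and that of Gsta2 remained whichever single array was left out.

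The 3 Ugt genes that rose in WT were Ugt2b1 by 1.13 (SE 0.27, adjusted p = 0.012), Ugt1a10 by 0.80 (SE 0.21, adjusted p = 0.019) and Ugt3a1 by 0.56 (SE 0.17, adjusted p = 0.040). The second Ugt1a10 probe gave 0.08. With normexp background correction and the 75th percentile the differences were -0.083 for Ugt1a10 and -0.080 for Ugt3a1. Without WT_P0 3 and 4, Ugt2b1 (0.67, adjusted p = 0.097) and Ugt3a1 (0.51, adjusted p = 0.17) did not pass. Ugt2b35 differed by 0.96 and did not pass (adjusted p = 0.086). Ugt1a10 and Ugt3a1 were lost without any 1 of the 3 WT_E19 arrays (adjusted p from 0.051 to 0.12) and without WT_P0 3, Ugt3a1 also without WT_P0 1, WT_P0 4 or KO_E19 1, and Ugt2b1 without WT_E19 1 (0.054).

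In KO the same comparison gave 4 rises and 11 falls among the 49 genes (over all genes 8.57% rose and 11.4% fell). The 4 that rose were Sult1e1, Sult1d1 (1.32, SE 0.29, adjusted p = 0.0074), Ugt3a1 (0.66, SE 0.17, adjusted p = 0.015) and Sult1b1 (0.57, SE 0.17, adjusted p = 0.036). Sult1e1 had -7.12, -7.32 and -7.53 in KO_E19, none above background, and -3.04, -1.43, -3.06, -0.32 and -1.49 in KO_P0. In the main processing it was at least 39.8-fold higher (adjusted p = 7.8e-05). Over 28 alternatives its log2 difference lay between 1.74 and 5.75 and kept its call, so the size depends on the processing. The 10 Gst genes that fell were Gsta3, Gsta4, Gstk1, Gstm1, Gstm4, Gstm6, Gstm7, Gstp1, Gstp2 and Gstt1, by 0.43 (Gstk1) to 1.34 (Gsta3) on the log2 scale, and the 11th gene was Sult3a1. Sult1b1 was lost without KO_E19 1, KO_E19 2, KO_P0 1, KO_P0 3 or KO_P0 5 (adjusted p from 0.059 to 0.15), and with the replicate number as a block (0.14). Ugt3a1 was lost without KO_E19 1 (0.068) or KO_E19 2 (0.074), Gsta4 without KO_E19 3 (0.060), and Gstk1 without any KO_E19 array, KO_P0 2 or KO_P0 5 (0.054 to 0.10). With slide as a block Gsta4, Gstm7, Sult1b1, Sult1d1, Sult3a1 and Ugt3a1 did not pass.

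Several genes passed over birth in 1 genotype only. In WT and in KO the differences were 3.11 and 0.69 for Sult2a1, 2.13 and 0.93 for Gsta2, 1.13 and -0.30 for Ugt2b1, 0.13 and -0.43 for Gstk1, and -0.29 and -0.81 for Gstm4. The test of each of these differences is the interaction above, which 0 members passed, so they are not shown to differ between the genotypes. Array brightness was higher at P0 than at E19.5 in both genotypes, with no overlap. With it as a covariate 0 of the 20 WT changes passed, against 11 of the 15 in KO.

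The genes that supply and clear these enzymes were read from lists of named pathway genes. These lists were chosen with earlier results of these data known, so counts in them are descriptions. Over all genes 4.73% were lower and 2.3% were higher in KO_P0. Such shares are not given without WT_P0 3 and 4 or with the replicate block. Of 5 genes for UDP-glucuronate, the sugar donor of the Ugt enzymes, 0 passed between the genotypes at P0. Ugdh, which makes UDP-glucuronate, fell over birth in WT (by 0.41, SE 0.10, adjusted p = 0.010) and in KO (by 0.49, SE 0.09, adjusted p = 0.0029), and Slc35d1, which carries it into the endoplasmic reticulum, fell by 0.61 (SE 0.15, adjusted p = 0.012) and 0.56 (SE 0.14, adjusted p = 0.015). For sulfate activation, 1 of 8 genes fell in KO_P0. This was Papss2, the synthase of the sulfate donor PAPS, with 4.65, 4.90, 4.76 and 5.28 in WT_P0 and 4.49, 4.45, 4.16, 4.61 and 4.33 in KO_P0 (-0.49, SE 0.13, adjusted p = 0.042). Papss2 did not pass without WT_P0 3 and 4 (adjusted p = 0.20), and with the replicate number as a block 0 of the 8 passed.

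Of 13 genes of glutathione synthesis and recycling, 0 rose and 2 fell in KO_P0. Ggt1, which cleaves glutathione outside the cell, fell by 0.65 (SE 0.14, adjusted p = 0.015), and the 5-oxoprolinase Oplah by 0.48 (SE 0.13, adjusted p = 0.041). The largest difference in this list was a positive one, 1.97, which did not pass. Gclc, the rate-limiting synthesis enzyme, differed by 0.02. Of 11 other glutathione-using enzymes, the microsomal transferase Mgst1 (-0.46, SE 0.12, adjusted p = 0.036) and the glyoxalase Hagh (-0.45, SE 0.12, adjusted p = 0.037) fell. None of these 4 was called without WT_P0 3 and 4, and with the replicate block 0 of the 11 passed. Over birth, Mat1a, which makes S-adenosylmethionine, rose by 1.61 in WT (SE 0.17, adjusted p = 9.4e-05) and by 1.87 in KO (SE 0.17, adjusted p = 1.3e-05).

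Transporters of conjugates and their substrates had 7 falls and 1 rise among 15 genes in KO_P0, with a median of -0.53. Over all genes 4.73% fell and 2.3% rose. Without WT_P0 3 and 4 the list had 4 falls and 0 rises. Slco1b2, which takes up bilirubin and bile acids, had 5.45, 5.63, 6.12 and 6.47 in WT_P0 and lay between 3.66 and 4.72 in KO_P0 (-1.64, SE 0.22, adjusted p = 0.0019). It remained without WT_P0 3 and 4 (adjusted p = 0.031). Abcc2, which exports conjugates into bile, fell by 0.53 (SE 0.09, adjusted p = 0.0059), and did not pass without those arrays (0.077). Slc10a1, the bile acid uptake carrier, was the 1 that rose, by 0.34 (SE 0.09, adjusted p = 0.047).

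The other conjugation routes, methylation, acetylation and amino acid conjugation, had 6 falls among 13 genes at P0 (over all genes 4.73% fell). The median was -0.75, and 2 falls were left without WT_P0 3 and 4. Tpmt, the thiopurine methyltransferase, had 0.71, 0.88, 1.44 and 1.88 in WT_P0 and lay between -0.05 and 0.32 in KO_P0 (-1.13, SE 0.19, adjusted p = 0.0053), and remained without those arrays (adjusted p = 0.026). Baat, which joins bile acids to taurine and glycine, fell by 1.47 (SE 0.28, adjusted p = 0.0088) and the methyltransferase Inmt by 2.13 (SE 0.50, adjusted p = 0.026). Of 5 hydrolases of conjugates, 1 fell, the arylsulfatase Arsg (-0.60, SE 0.14, adjusted p = 0.022), and 0 with the replicate block.

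Of 19 receptors and factors known to act on conjugation genes, 5 fell and 0 rose in KO_P0 (over all genes 4.73% fell and 2.3% rose). Nr0b2, the small heterodimer partner, had -0.52, 0.50, -0.25 and -0.20 in WT_P0 and lay between -3.80 and -1.96 in KO_P0 (-2.74, SE 0.37, adjusted p = 0.0022), and remained without WT_P0 3 and 4 (adjusted p = 0.033). Cebpa (-0.83, SE 0.14, adjusted p = 0.0054), Foxa2 (-0.72, SE 0.18, adjusted p = 0.031), the xenobiotic receptor Nr1i2 (-0.51, SE 0.12, adjusted p = 0.026) and the bile acid receptor Nr1h4 (-0.59, SE 0.17, adjusted p = 0.0495) also fell, and none of these 4 was called without WT_P0 3 and 4. Nr1i3, the constitutive androstane receptor, differed by -0.56 and did not pass (adjusted p = 0.055). Nfe2l2, which codes for NRF2 (-0.16), the dioxin receptor Ahr (0.19) and Hnf4a (0.27) did not pass either. In WT, Nr1i2 rose over birth by 0.81 (SE 0.14, adjusted p = 0.0018) and Nr0b2 by 1.81 (SE 0.42, adjusted p = 0.010).

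Genes known to answer NRF2 or the xenobiotic receptors were read outside the 3 families. Of 17 NRF2 targets 2 fell in KO_P0, the microsomal epoxide hydrolase Ephx1 (-1.27, SE 0.14, adjusted p = 0.00084) and Osgin1 (-0.89, SE 0.19, adjusted p = 0.018), with a median of -0.01, and 1 with the replicate block. Ephx1 lay between 5.32 and 5.59 in WT_P0 and between 3.93 and 4.60 in KO_P0, and remained without WT_P0 3 and 4 (adjusted p = 0.026). Nqo1, often used as a readout of NRF2, differed by 0.09. Of 14 xenobiotic receptor targets 3 fell in KO_P0. Over birth 7 of these 14 rose in WT and 6 in KO (over all genes 8.35% and 8.57%). Among them, Por, the P450 electron donor, rose by 1.11 in WT (SE 0.14, adjusted p = 0.00029) and by 1.07 in KO (SE 0.13, adjusted p = 0.00018). Cyp2b10 rose by 1.85 in WT (SE 0.36, adjusted p = 0.0035) and by 1.77 in KO (SE 0.34, adjusted p = 0.0033).

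Start-site windows of the members were read from RefSeq (GRCm38.p6, 250 bases before to 50 after each start) because 14 genes fell together at P0. Windows were found for 42 of the 49 genes, 53 windows in all, and for 12 of the 14 genes that fell, 15 windows. The motifs reported here, sought on both strands, were TGACNNNGC (antioxidant response element core), GCGTG (xenobiotic response element core), AGGTCA (nuclear receptor core) and TATAAA (core promoter element bound by TBP). In that order they were in 12.4%, 32.4%, 16.3% and 13.6% of all 32851 windows. They were in 5.66%, 20.8%, 17% and 15.1% of the 53 windows of members, and in 1, 3, 3 and 2 of the 15 windows of genes that fell. The stretches of 30 bases below, on the gene's strand with the match in capitals, are those of Gsta3 and Ugt2b35 that held the antioxidant and nuclear receptor letters. They describe sequence only, and no binding was measured.
Gsta3, chr1:21240454-21240483, plus strand: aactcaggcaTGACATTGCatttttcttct
Ugt2b35, chr5:87000633-87000662, plus strand: acaggtttacacAGGTCAcaactcctaact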

How the data were processed

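The deposited scanner files hold fluorescence intensity per spot from Agilent Feature Extraction 10.10, per the file headers. The authors also deposited a log2 value table, used as an alternative. Per the submitters' processing notes limma was used, and no further step is stated for it. Spots marked as outliers were dropped, and the mean was taken over the rest of each probe. The kept probes numbered 34408, of which 33027 had a gene name, and the brightest stood for its gene. Members, gene lists and naming rules were chosen with earlier results of these data known. Any member may be named, and of each pathway list the genes that passed or that stand for its pathway. Genes were tested 2-sided with limma 3.58.1 (lmFit, eBayes; R 4.3.3, data.table version 1.17.8) in a model of 4 group means with 11 residual degrees of freedom and 5 contrasts, tested on simulated data. The number of arrays limits the precision.

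Errors are limma standard errors (SE), and ± is the SD between arrays. Between KO_P0 and WT_P0, arrays with the same replicate number in the labels deviated together from their group means (correlations 0.14, 0.203, 0.132 and 0.266 for numbers 1 to 4). The labels state no pairing, and these arrays also shared a slide, so pairing and slide cannot be told apart. The main model leaves the number out, and the block is an alternative. Alternatives covered background, normalization, filters, slide, replicate number, array brightness, samples fitted and arrays left out.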

Additional observations from a re-analysis of the deposited data

Results flagged for a closer look

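Among 98 groups of 4 or 5 arrays (49 genes in WT_P0 and KO_P0), Dixon's criterion marked 1 array as far from the others in 6, where chance gives about 1 in 20 groups. Gsta2 was at -3.01 on KO_P0 2, with the other KO_P0 arrays between -4.14 and -4.00. Gstcd was at -4.09 on WT_P0 4, with the others between -3.53 and -3.45. Gstm2 was at 2.49 on KO_P0 1, against 2.19 to 2.26. Ugt1a10 was at -3.12 on KO_P0 5, against -3.75 to -3.60. Ugt2a3, a glucuronosyltransferase of liver and gut, was at -2.95 on KO_P0 4, against -1.84 to -1.50. Ugt3a2 was at 1.28 on WT_P0 1, against -0.26 to -0.15, where the E19.5 arrays of both genotypes lay between 0.77 and 0.94.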

How the results depend on the processing

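No alternative changed the count of 0 at E19.5. At P0 the 15 calls became 0 on slide 2 alone, 0 with array brightness as a covariate, 4 without WT_P0 3 and WT_P0 4, and 5 when only the P0 arrays were fitted; the count lay between 8 and 19 when 1 array was left out. In WT over birth the 20 calls became 12 with slide as a block, 3 on slide 2, 10 with only the WT arrays, 0 with brightness and 10 without WT_P0 3 and WT_P0 4, and lay between 12 and 23 when 1 array was left out. In KO over birth the 15 calls became 6 on slide 2 and lay between 12 and 18 when 1 array was left out. With slide as a block 9 of these 15 calls remained. Without the 5 arrays with raised muscle or adrenal transcripts only WT_P0 3 is left in its group, so no interaction count is given there. Other counts stayed within 1.5 times.

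Among genes that passed, signs turned over birth in WT. With the brightness covariate the differences were 0.15 for Gstm6, 0.0254 for Gstp2, -0.85 for Sult1d1, -0.50 for Sult2a1, -0.54 for Sult2a2, -2.27 for Sult2a4, -0.995 for Sult2a6, 1.86 for Sult3a1 and -0.13 for Ugt2b1. With normexp background correction they were -0.16 for Sult2a3, -0.083 for Ugt1a10 and -0.080 for Ugt3a1. The cause was not tested. With the replicate number as a block the counts were 0 at E19.5, 12 at P0, 18 in WT over birth (without Sult1c2, adjusted p = 0.053, and Sult2a2, 0.13), 15 in KO over birth and 0 for the interaction. Outside the P0 contrast same-numbered arrays did not deviate together in every pair (correlations 0.209, 0.01 and 0.145 at E19.5, -0.16, -0.192 and 0.089 in WT, and -0.069, 0.045 and -0.137 in KO) and were not taken as pairs, though they shared slides at E19.5 and, for number 2, over birth. Genes below background on a whole group, Sult1e1 and Sult2a3, have only a bound there.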
